A study of Mus musculus with 4 samples.

Results

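The MHC class I presentation genes examined here were 10 named genes of mouse regulatory T cells, matched by symbol to the gene identifiers of the count tables, out of 50600 genes counted. They were 5 class I heavy chain genes (H2-K1, H2-D1, H2-Q6, H2-Q7 and H2-T23), the light chain gene B2m, the peptide loading genes Tap1, Tap2 and Tapbp, and Nlrc5, a transactivator of class I genes. All 10 were found, and all 10 passed the filter on low counts used for testing.

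RNA was sequenced from 4 biosamples of primary regulatory T cells of C57BL/6NJ mice, 1 library each, with a linked protocol for differentiating CD4+ T cells. The labels give 1 group with no other cell type, genotype, treatment or comparison arm, list all 4 biosamples under 1 donor record, state that sex was not collected and leave age unknown. The headers of the count tables carry the words activated and 48 h for all 4 libraries. The assay is named total RNA-seq while the library protocol is named for polyA+ RNA. Nothing in the labels says whether the 4 biosamples came from separate animals, so the spread between them may be partly technical. Xist RNA was plentiful in replicates 1 and 2 and scarce in replicates 3 and 4, as given below, a difference that the labels do not account for.

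Class I molecules are made in nearly every nucleated cell and show peptides from the cell's own proteins to CD8+ T cells. A heavy chain folds with beta-2-microglobulin in the endoplasmic reticulum, where the transporter TAP brings in peptides cut by the proteasome and tapasin holds the empty molecule next to TAP until a peptide binds. Transcription of these genes is known to run through an enhanceosome of RFX, CREB/ATF and NF-Y proteins on the promoter's SXY module, to which NLRC5 is recruited, and through upstream sites for NF-kappaB and interferon regulatory factors.

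The promoter letters of 4 members are shown because the heavy chain genes differed most in their spread between libraries, while B2m was the most abundant member. They are reference sequence of RefSeq for GRCm38.p6, whose coordinates are those of mm10, and each ends next to the first base of the gene as counted. Capitals mark the letters searched on both strands: GGATTCCC (the core of a kappaB element), GTTTCNNTT (part of an interferon response element), TGACG (part of the X2 box bound by CREB/ATF proteins) and CCAAT or its reverse ATTGG (the Y box bound by NF-Y). H2-K1 lies on the minus strand at chr17:34000334-34000466, and H2-Q6 lies on the plus strand at chr17:35424669-35424849. H2-Q7 lies on the plus strand at chr17:35439014-35439154, and B2m lies on the plus strand at chr2:122147547-122147685.
H2-K1: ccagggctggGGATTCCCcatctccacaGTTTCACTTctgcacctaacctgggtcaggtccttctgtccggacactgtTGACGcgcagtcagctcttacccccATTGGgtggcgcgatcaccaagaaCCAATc
H2-Q6: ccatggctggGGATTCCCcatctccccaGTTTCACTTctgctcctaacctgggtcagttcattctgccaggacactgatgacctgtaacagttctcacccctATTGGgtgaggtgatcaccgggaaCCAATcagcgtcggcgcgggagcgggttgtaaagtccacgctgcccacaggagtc
H2-Q7: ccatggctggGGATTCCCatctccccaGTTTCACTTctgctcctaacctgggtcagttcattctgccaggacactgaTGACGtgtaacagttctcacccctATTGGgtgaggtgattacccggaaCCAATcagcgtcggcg
B2m: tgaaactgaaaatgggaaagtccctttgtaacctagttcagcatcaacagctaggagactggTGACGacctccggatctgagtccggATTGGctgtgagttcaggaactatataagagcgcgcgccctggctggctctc

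H2-K1, H2-Q6 and H2-Q7 carried the same order of kappaB core, interferon response letters and a pair of CCAAT matches in opposite orientation. B2m had TGACG and a single CCAAT match without GGATTCCC or GTTTCNNTT. H2-Q6 had no TGACG in its promoter window, where H2-Q7 had 1 match at position -64 from the RefSeq start. RefSeq's table held promoters for 8 of the 10 members, Tap2 and Nlrc5 being the others, and each promoter ran from 250 bases before to 50 bases after the start. GGATTCCC occurred in 4 of these 8 (H2-K1, H2-D1, H2-Q6 and H2-Q7) and in 1.02% of the 32851 promoters in the table. GTTTCNNTT occurred in the same 4 and in 5.77% of all promoters. TGACG occurred in 5 of 8 (H2-K1, H2-D1, H2-Q7, B2m and Tap1) against 20.8% of all promoters, and CCAAT in 8 of 8 against 37.4%. The longer-ended letters GATTCCCC, which overlap GGATTCCC by all but their last base, occurred in 3 of 8 (H2-K1, H2-D1 and H2-Q6) and in 0.84% of all promoters. A match describes letters in a window and not a bound site. Other spellings of the kappaB and interferon response elements were not searched, so a promoter without a match, such as that of B2m, may still hold such an element.

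The 4 libraries, numbered as in the labels, held 43821767, 58696937, 73819468 and 52005209 counts. Levels are given as transcripts per 1000000 (TPM), counts divided by the gene's exon length and scaled to 1000000 per library. The length covers all annotated exons of a gene, so comparisons between genes depend on it and can be off where shorter transcripts were made. The libraries differed from each other by more than counting error, with a chi-square per degree of freedom between 11.7 and 26.2 over the 6 pairs. All 7 regulatory T cell markers reached 1 TPM in every library, among them Foxp3 at 289 ± 23.5 (SD, n = 4), Il2ra at 1488 ± 19.4 and Cd4 at 611 ± 25.4. None of 6 CD8 and NK markers reached that level in all libraries (summed TPM 1.53 to 2.20, Ncr1 at 0), nor did any of 5 B cell markers (0.366 to 0.573). Of 7 macrophage and dendritic cell markers, 1 did (Adgre1), with Lyz2 at 0 and a summed TPM of 1.20 to 2.18. The granulocyte and mast cell markers summed to at most 0.0543 with S100a8 and Elane at 0, the erythroid and platelet markers to at most 1.28 with Hba-a1 at 0, and the stromal and epithelial markers to at most 2.37. In bulk libraries, fewer cells of a type and less RNA per cell cannot be told apart.

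All 10 members were expressed, here meaning 1 TPM or more in each of the 4 libraries, against 22.9% of the 50600 genes (11593). Together they took 0.343 ± 0.0134% (SD, n = 4) of all TPM. Their levels ran from 1313 TPM for B2m to 7.07 TPM for H2-Q6, and 7 of the 10 lay above the median of 28.6 TPM over expressed genes. The 3 below it were H2-Q7, Nlrc5 and H2-Q6.

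**Figure D1:**
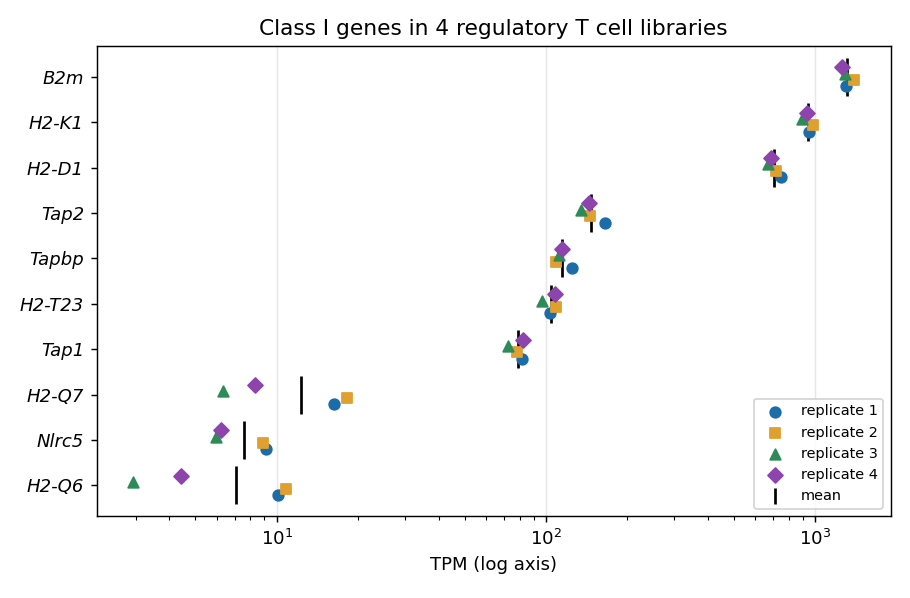
TPM (log axis) of the 10 members in each of the 4 libraries, with 1 symbol per replicate and a vertical bar at the mean. B2m, H2-K1 and H2-D1 sit between 671 and 1399 TPM with tight points, and H2-Q7, Nlrc5 and H2-Q6 sit under 20 TPM with replicates 1 and 2 to the right of replicates 3 and 4.

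H2-K1 (ENSMUSG00000061232.15, chr17:33996017-34000333, minus strand) and H2-D1 (ENSMUSG00000073411.11, chr17:35262730-35267499, plus strand) encode the classical heavy chains K and D, the main presenters of peptide to CD8+ T cells. H2-K1 was at 946, 980, 896 and 934 TPM in replicates 1 to 4, a mean of 939 ± 34.6 (SD, n = 4). H2-D1 was at 748, 715, 671 and 685 TPM, a mean of 705 ± 34.2. Replicate 3 was lowest for both genes, and every H2-K1 value lay above every H2-D1 value. The TPM ratio of H2-K1 to H2-D1 was 1.27, 1.37, 1.34 and 1.37 in the 4 libraries, so the excess of H2-K1 held in each (1.33 ± 0.0486). H2-K1 ranked 104th and H2-D1 177th of the 11593 expressed genes by mean TPM.

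H2-T23 (ENSMUSG00000067212.8, chr17:36029773-36032855, minus strand) encodes Qa-1, a nonclassical heavy chain that presents leader peptides of other class I chains to CD94/NKG2 receptors. Its level was 104, 109, 97.2 and 108 TPM, a mean of 104.6 ± 5.49. Replicate 3 was again the lowest, and the highest library exceeded it 1.12-fold.

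H2-Q6 (ENSMUSG00000073409.12, chr17:35424850-35430055, plus strand) and H2-Q7 (ENSMUSG00000060550.15, chr17:35439155-35443773, plus strand) are neighbouring genes of the Q region, which encodes Qa-2 and related nonclassical chains. H2-Q6 was at 10.101, 10.821, 2.92 and 4.43 TPM, from 266, 389, 132 and 139 counts. H2-Q7 was at 16.3, 18.3, 6.34 and 8.34 TPM, from 880, 1347, 585 and 536 counts. For both genes replicates 1 and 2 were high and replicates 3 and 4 low, with replicate 2 the highest and replicate 3 the lowest. The highest library exceeded the lowest 3.70-fold for H2-Q6 and 2.89-fold for H2-Q7. The 2 genes moved nearly in step, with an H2-Q7 to H2-Q6 ratio of 1.62, 1.69, 2.17 and 1.89 (1.84 ± 0.245).

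B2m (ENSMUSG00000060802.8, chr2:122147686-122153083, plus strand) encodes beta-2-microglobulin, the light chain shared by all class I molecules and the 1 member encoded on chromosome 2. It was at 1304, 1399, 1288 and 1261 TPM, a mean of 1313 ± 60.1, and ranked 70th of the 11593 expressed genes. Replicate 2 stood highest and the other 3 lay close together. The 5 heavy chain genes summed to 1824, 1833, 1673 and 1740 TPM, which was 1.399, 1.31, 1.30 and 1.38 times the B2m level of the same library (1.35 ± 0.0497). H2-K1 and H2-D1 made up 93.0 ± 0.49% of that heavy chain sum. H2-Q6 and H2-Q7 together made up 1.45%, 1.59%, 0.553% and 0.734% of it, so their swing between libraries was a small part of the total.

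Tap1 and Tap2 encode the partner chains of the peptide transporter. Tap1 (ENSMUSG00000037321.17, chr17:34187553-34197225, plus strand) was at 81.2, 77.9, 72.6 and 82.6 TPM, a mean of 78.6 ± 4.45. Tap2 (ENSMUSG00000024339.12, chr17:34203527-34216321, plus strand) was at 166, 146, 135 and 145 TPM, a mean of 147.6 ± 12.9. Every Tap2 value lay above every Tap1 value, with replicate 3 lowest for both and replicate 1 highest for Tap2. The Tap2 to Tap1 ratio was 2.04, 1.87, 1.86 and 1.75 (1.88 ± 0.118).

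Tapbp (ENSMUSG00000024308.14, chr17:33915899-33929288, plus strand) encodes tapasin, the chaperone that bridges class I molecules to TAP and edits their peptides. It was at 125, 109, 112 and 115 TPM, a mean of 115 ± 6.97, with replicate 1 highest. Of its exon bases, 1.85% were also annotated to Zbtb22 on the same strand, where reads of the 2 genes cannot be told apart. No other member shared exon bases with a gene on its strand.

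Nlrc5 (ENSMUSG00000074151.13, chr8:94434356-94527272, plus strand) encodes the NLR family protein that acts as the class I transactivator, as CIITA does for class II genes. It was at 9.15, 8.91, 5.97 and 6.21 TPM, from 981, 1305, 1097 and 795 counts. Replicates 1 and 2 were high and replicates 3 and 4 low, the same libraries as for H2-Q6 and H2-Q7 but over a narrower range, 1.53-fold between the highest and the lowest. H2-K1, H2-D1, B2m and Tap2 were also higher in replicates 1 and 2 than in 3 and 4, but within 1.09-fold to 1.23-fold over all 4 libraries. H2-T23, Tap1 and Tapbp did not fall in that order.

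By mean TPM the order was B2m, H2-K1, H2-D1, Tap2, Tapbp, H2-T23, Tap1, H2-Q7, Nlrc5 and H2-Q6. Of the 9 neighbouring pairs in this order, 6 had ranges over the 4 libraries that did not overlap. The overlapping neighbours were Tapbp and H2-T23 (Tapbp higher in 3 of 4 libraries), H2-Q7 and Nlrc5 (H2-Q7 higher in 4 of 4) and Nlrc5 and H2-Q6 (Nlrc5 higher in 2 of 4). The step from H2-D1 to Tap2 was a ratio of 4.79 ± 0.206, and that from Tap1 to H2-Q7 was wider and less even at 7.64 ± 3.57. In an alternative, each gene's length was multiplied by the share of its stretches of 50 bases found at no other gene. H2-T23 then passed Tapbp, and H2-Q6, at 10.87 in place of 7.07 TPM, passed Nlrc5, so the order within these pairs was not fixed.

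**Figure D2:**
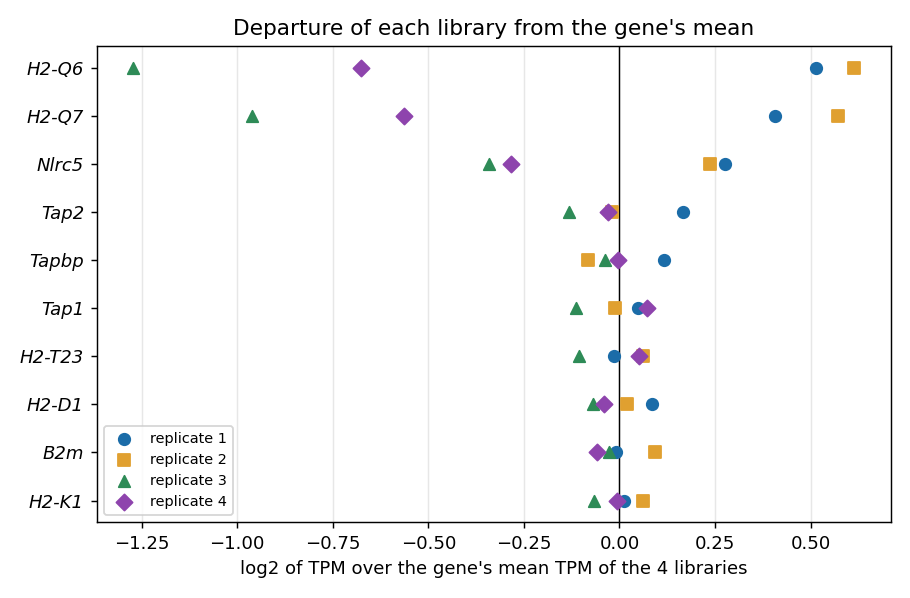
Log2 of each library's TPM over the gene's mean TPM of the 4 libraries, 1 row per member and 1 symbol per replicate. H2-Q6 and H2-Q7 spread from -1.27 to 0.61, Nlrc5 from -0.34 to 0.27, and the other 7 members stay between -0.13 and 0.17.

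Between libraries 7 members varied little and H2-Q6, H2-Q7 and Nlrc5 varied more. The coefficient of variation (SD over mean of TPM) was 3.69% for H2-K1, 4.58% for B2m and 4.85% for H2-D1, under the median of 6.52% over expressed genes. H2-T23 at 5.25%, Tap1 at 5.67% and Tapbp at 6.06% were also under that median, and Tap2 at 8.76% was above it. H2-Q6 reached 56.3%, H2-Q7 47.7% and Nlrc5 22.5%, at the 99.5th, 98.9th and 91.6th percentiles of expressed genes. Counting error alone would give 7.10% for H2-Q6, 3.64% for H2-Q7 and 3.13% for Nlrc5, below the observed spread in each case. Low genes vary more in general, as the plot of spread against level shows, and the percentiles are over expressed genes of every level.

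**Figure D3:**
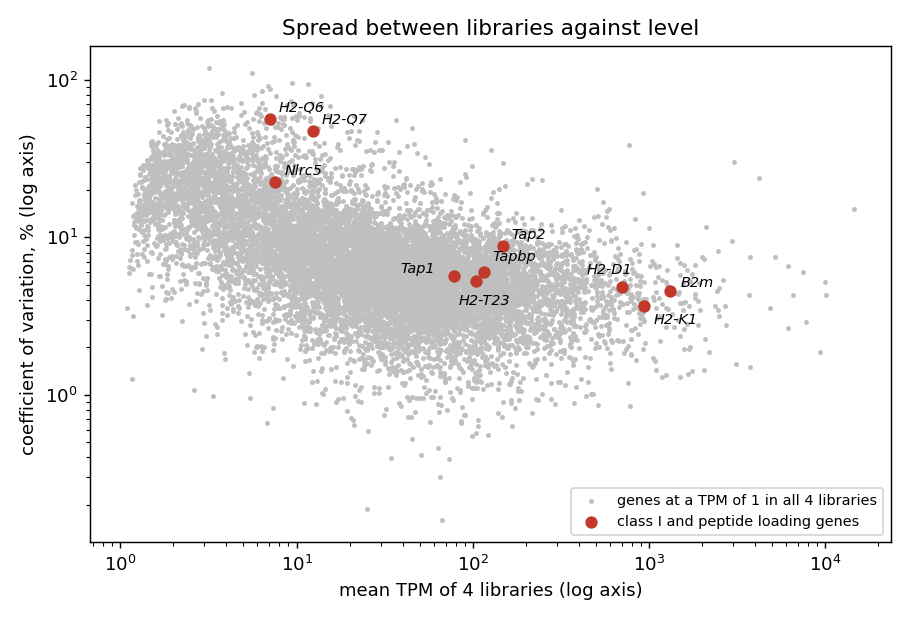
Coefficient of variation in percent against mean TPM of 4 libraries (both log axes) for the 11593 expressed genes in grey and the 10 members in red. H2-Q6 at 56.3%, H2-Q7 at 47.7% and Nlrc5 at 22.5% lie toward the top of genes of like level, and H2-K1, B2m and H2-D1 lie at 3.69% to 4.85%.

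Because the design holds 1 group, the test available was of each library against the other 3, by edgeR's quasi-likelihood test with Benjamini-Hochberg adjustment over the 12917 genes past the filter. It compares libraries and no conditions. Replicate 1 against the rest called 9 genes (0.0697% of those tested, 6 higher and 3 lower) and none of the 10 members. Replicate 2 called no gene (0.0%) and no member. Replicate 3 called 3 genes (0.0232%), all lower, and no member. Replicate 4 called no gene (0.0%) and no member. At an unadjusted p under 0.05, edgeR passed 3, 2, 3 and 0 members in the 4 comparisons, beside 1202 genes (9.31%), 876 (6.78%), 299 (2.31%) and 322 (2.49%) in all. DESeq2 called none of the members it gave an adjusted p, and 16 genes (0.385% of 4152), 19 (0.369% of 5154), 8 (0.0619% of 12917) and 0 (0.0%) in all. It gave H2-Q6, H2-Q7 and Nlrc5 no adjusted p in the comparisons of replicates 1 and 2, so those 6 results could not be called by it.

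The largest departures among the members were those of H2-Q7 and H2-Q6 in replicate 3. CPM here are counts per 1000000 of the library's counts in genes past the filter, scaled between libraries by edgeR. H2-Q7 was at 7.90 CPM in replicate 3 and 17.8 on average in the other 3. The log2 difference was -1.17 (SE 0.291), which edgeR did not call. H2-Q6 was at 1.78 against 5.13 CPM, a log2 difference of -1.52 (SE 0.403, edgeR adjusted p = 0.983). With replicates 1 and 2 high together and 3 and 4 low together, each comparison of 1 library with the rest keeps a library like it among the rest. Each fit with 1 library left out is given with the share of all genes it called. With replicate 4 left out, 0.159% of genes were called for replicate 3 (21 of 13167), which was lower than replicates 1 and 2 for H2-Q7 by a log2 difference of -1.45 (edgeR adjusted p = 6.78e-11) and for H2-Q6 by -1.83 (adjusted p = 2.7e-05). With replicate 1 left out, 0.393% were called for replicate 2 (52 of 13224), which was higher than replicates 3 and 4 for H2-Q7 by 1.33 (edgeR adjusted p = 1.72e-14), for H2-Q6 by 1.57 (adjusted p = 1.76e-05) and for Nlrc5 by 0.55 (adjusted p = 0.0299). With replicate 2 left out, 0.861% were called for replicate 1 (112 of 13007), which was higher than replicates 3 and 4 for H2-Q7 by 1.16 (edgeR adjusted p = 8.9e-10), for H2-Q6 by 1.47 (adjusted p = 0.000222) and for Nlrc5 by 0.58 (adjusted p = 0.0107). Leaving out replicate 3 gave a call for H2-Q7 in replicate 4, a log2 difference of -1.05 (edgeR adjusted p = 4.38e-05, 0.0696% of genes called), and none for H2-Q6 or Nlrc5. Replicate 3 also passed for H2-Q7 (-1.07, edgeR adjusted p = 2.83e-06) and H2-Q6 (-1.38, adjusted p = 0.0123) without replicate 1, where 0.121% of genes were called. Replicate 2 passed for H2-Q7 (0.72, edgeR adjusted p = 0.0124) without replicate 4, where 0.0684% were called. With no filter on low counts, edgeR called H2-Q7 in replicate 1 (0.477% of 22031 genes called), H2-Q6 and H2-Q7 in replicates 2 (0.272%) and 3 (0.159%), and H2-Q7 in replicate 4 (0.0726%). All comparisons have a lone library on 1 side, which is assumed to vary like the others. Leaving out the library most like the lone one leaves replicates 1 and 2, or 3 and 4, as the whole reference side. Those p-values therefore restate the split of replicates 1 and 2 from 3 and 4, without repeated libraries on the lone side.

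Xist, the X-inactivation RNA, also separated the libraries, with 172 and 145 TPM in replicates 1 and 2 against 0.255 and 0.367 TPM in replicates 3 and 4. Some summed marker levels of other cell types fell the same way or the opposite way, all at low levels. The macrophage and dendritic cell markers summed to 1.37, 2.18, 1.20 and 1.33 TPM, higher in replicates 1 and 2 but only slightly so in replicate 1. Adgre1, the expressed marker among them, was at 1.15, 1.77, 1.02 and 1.25 TPM, with replicate 4 above replicate 1. The CD8 and NK markers summed to 1.53, 1.74, 2.20 and 1.97 TPM and the B cell markers to 0.376, 0.366, 0.444 and 0.573, both lower in replicates 1 and 2. The stromal and epithelial markers, at 1.03, 1.18, 2.37 and 1.22 TPM, were lower there as well. The erythroid and platelet markers, at 0.329, 1.28, 0.973 and 0.260 TPM, did not follow that order. The granulocyte and mast cell markers were at 0, 0, 0.0305 and 0.0543 TPM. These sums rested on 1 count of Cpa3 in replicate 3 and 1 count of Ngp in replicate 4, too few to order the libraries. The libraries high in Xist were also those high in H2-Q6, H2-Q7 and Nlrc5. Xist status therefore cannot be told apart from any other difference between replicates 1 and 2 and replicates 3 and 4. The part of Xist status or of these markers in the levels of H2-Q6, H2-Q7 and Nlrc5 was not tested.

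For the other members the edgeR differences were small. Tap2 in replicate 1 was at 182 CPM against 156 in the other 3, a log2 difference of 0.22 (SE 0.0667, edgeR adjusted p = 0.237). It was called in 1 leave-one-out setting, without replicate 4, at 0.23 (edgeR adjusted p = 0.0259), a fit that called 341 of 13167 genes (2.59%). Tapbp in replicate 1 stood at 0.15 (SE 0.0712, edgeR adjusted p = 0.507). For H2-K1, H2-D1, H2-T23, B2m and Tap1 the log2 differences in the 4 comparisons lay between -0.14 and 0.13, and edgeR gave no unadjusted p under 0.05.

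The pattern of H2-Q6, the most variable member, was set beside those of the 12916 other genes past the filter by the Euclidean distance of log2 CPM centred on each gene's mean over the 4 libraries. The nearest 5 were 2810414N06Rik (distance 0.215), H2-Q7 (0.318), 1700021A07Rik (0.338), Csf3 (0.399) and Ccdc120 (0.441). The 4 nearest genes other than H2-Q7 were low, at most 1.25 CPM in any library. 2810414N06Rik was at 2.35, 2.44, 0.736 and 0.913 TPM, and Csf3, which encodes the granulocyte growth factor G-CSF, was at 2.13, 1.77, 0.654 and 0.987. H2-Q7 was 2nd and Nlrc5 129th in likeness to H2-Q6 (distance 1.04), H2-Q4 was 402nd, H2-Q5 805th, and the other 7 members lay between ranks 1061 and 4253.

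The heavy chain genes are near copies, which bears on how well counts can be assigned among them. Over aligned coding sequence H2-Q6 and H2-Q7 were 95.4% identical (933 of 978 bases), H2-K1 and H2-D1 were 91.5% identical, and H2-T23 was 81.1% to 83.7% identical to the other 4. Of all stretches of 50 bases in H2-Q6 transcripts, 35.0% occurred at another gene: 13.9% at H2-Q7, 12.3% at H2-Q4 and 5.99% at H2-Q5. H2-Q7 shared 26.5% of its stretches, 14.03% with H2-Q10, 8.74% with H2-Q5 and 6.31% with H2-Q6. The shares were 14.5% for H2-T23, 12.8% for H2-D1 and 9.63% for H2-K1, at most 1.54% for Tapbp, Tap2 and Tap1, and 0 for B2m and Nlrc5. With stretches of 100 bases H2-Q6 shared 13.0%, H2-Q7 12.0%, H2-D1 3.59% and H2-K1 0.957%. The levels of H2-Q6 and H2-Q7 are therefore uncertain as to which of these copies the reads came from. H2-Q8 and H2-Q9 matched no gene identifier, so sequence shared with them was not assessed. H2-Q6 and H2-Q7 together summed to 26.3, 29.4, 9.69 and 13.1 CPM in replicates 1 to 4. The part of shared sequence in their pattern was not tested. Of the other partners, H2-Q10 was at 0.0564 ± 0.0394 TPM, H2-Q4 at 64.7, 59.1, 48.9 and 47.8 TPM, and H2-Q5 at 4.03, 3.57, 2.09 and 0.793 TPM. H2-Q4 and H2-Q5 were thus also higher in replicates 1 and 2 than in 3 and 4, and edgeR called none of H2-Q4, H2-Q5, H2-Q6 and H2-Q7 in the 4 comparisons of 1 library with the other 3.

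**Figure D4:**
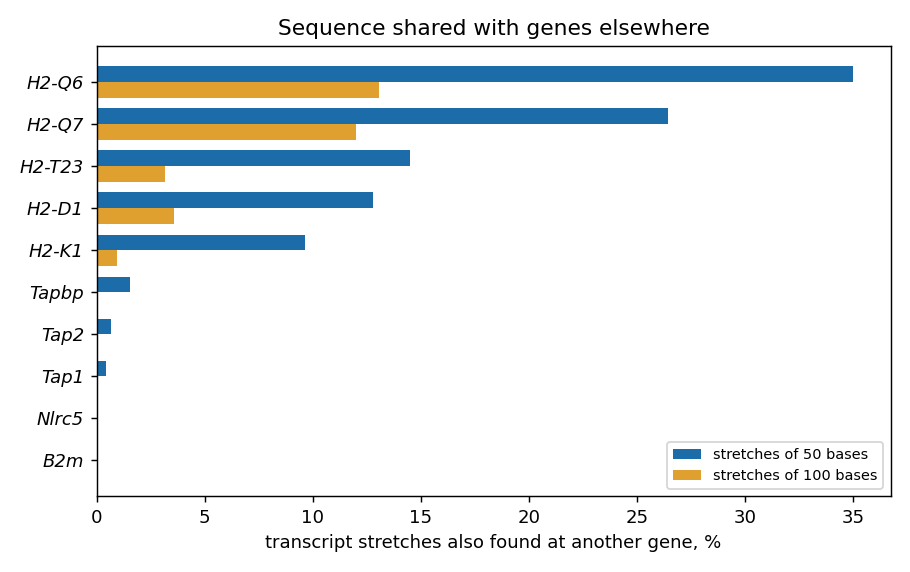
Share of transcript stretches of 50 and 100 bases that also occur at another gene, in percent, for each member. H2-Q6 (35.0% and 13.0%) and H2-Q7 (26.5% and 12.0%) have the longest bars, and B2m and Nlrc5 have none.

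Of 24 class I heavy chain genes of the classical, Q, T and M regions, 21 matched a gene identifier and 10 were expressed. None was called by edgeR in the 4 comparisons of 1 library with the other 3. H2-Q6 and H2-Q7 were called in the alternative fits given above. In this and the following lists, a call refers to those 4 comparisons unless stated otherwise. The median over the 21 was 2.62 TPM, and over the 10 expressed ones 37.6 TPM, beside 28.6 TPM over all expressed genes. H2-K1, H2-D1, H2-T23 and H2-Q4 (55.1 ± 8.19 TPM) were the most abundant. H2-Q1, H2-T3, H2-M1, H2-M2, H2-M5, H2-M9, H2-M10.1 and H2-M11 had 0 counts in all 4 libraries, where 3 counts in the shallowest library would be at most 0.236 TPM for any of them. H2-M3, which presents formylated peptides, was at 40.6 ± 2.80 TPM, and H2-T22 was at 34.5 ± 1.87 TPM.

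Among 9 class I-like molecules, 3 were expressed and none was called by edgeR. Ulbp1, a ligand of the receptor NKG2D, was at 12.3 ± 0.564 TPM, Mr1, which presents vitamin B metabolites, at 5.40 ± 0.400, and Cd1d1, which presents lipids, at 4.24 ± 0.162. Cd1d2 was at 0.399 ± 0.295 TPM, Raet1e had 1 count in the 4 libraries together, and Fcgrt and H60c had none.

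All 12 genes of the loading complex and its endoplasmic reticulum partners were expressed, with a median of 177 TPM. EdgeR called none of them in the comparisons of 1 library with the other 3, though Tap2 was called in 1 leave-one-out setting given above. The general chaperones were the most abundant: Calr (calreticulin) at 885 ± 24.9 TPM, Pdia3 (ERp57) at 583 ± 25.0, Canx (calnexin) at 547 ± 18.8 and Hspa5 (BiP) at 500.3 ± 10.6. The lowest was Uggt1, the folding sensor that sends misfolded glycoproteins back to calreticulin, at 44.5 ± 1.27 TPM. The class I dedicated genes lay between them, and the TPM ratio of Calr to Tapbp was 7.71 ± 0.377. Erap1, the aminopeptidase that trims peptides in the endoplasmic reticulum, was at 64.7 ± 5.20 TPM and Tapbpl, the second peptide editor, at 63.3 ± 2.74.

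Genes that make and trim peptides were expressed too. Of the immunoproteasome and PA28 genes, 6 of 6 were expressed and none was called by edgeR, with Psme3 at 563 ± 12.0 TPM, Psme2 at 360.1 ± 12.3, Psme1 at 359.8 ± 10.5 and Psmb8 at 305 ± 16.9. Psmb9 was the lowest at 29.5 ± 1.79 TPM. Each immunosubunit replaces a constitutive one. Their TPM ratios were unequal, at 0.782 ± 0.0461 for Psmb8 to Psmb5, 0.427 ± 0.0349 for Psmb10 to Psmb7 and 0.0853 ± 0.00651 for Psmb9 to Psmb6. The exon lengths behind these ratios differed, at 2736 and 871 bases, 1705 and 3421 bases, and 3659 and 1872 bases in the same order. The part of these lengths in the ratios was not tested. The constitutive subunits Psmb5, Psmb6 and Psmb7 were at 390.3 ± 8.75, 347 ± 13.6 and 192 ± 7.27 TPM. Of 7 cytosolic peptidases 6 matched and all 6 were expressed, led by Lap3 at 128 ± 5.02 TPM, Thop1 at 105 ± 6.19, Npepps at 75.7 ± 4.38 and Tpp2 at 71.0 ± 2.48, with Prep lowest at 58.5 ± 1.92.

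Nlrc5 was the lowest of 17 transcription factors and cofactors of class I genes, all of which were expressed. EdgeR called none of them in the comparisons of 1 library with the other 3, though Nlrc5 was called in leave-one-out fits given above. Nfkb1 and Rela, subunits of NF-kappaB, were at 340.5 ± 15.7 and 147 ± 8.90 TPM, Atf1, which binds the X2 box, at 98.7 ± 3.74 and Nfyc, a subunit of NF-Y, at 44.3 ± 1.21. The RFX subunit genes Rfxap, Rfx5 and Rfxank, whose complex recruits NLRC5, were at 29.1 ± 5.54, 17.0 ± 1.12 and 13.7 ± 1.18 TPM. Irf1, an interferon-induced factor that binds interferon response elements, was at 13.3, 16.5, 13.0 and 12.3 TPM, high in replicate 2.

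Of 12 interferon receptor and signalling genes 11 were expressed and none was called by edgeR. Socs1, the feedback inhibitor of interferon signalling, led at 314.6 ± 47.1 TPM and was highest in replicate 3, followed by Jak1 at 180.3 ± 1.98, Jak2 at 101 ± 5.41 and Ifngr2 at 60.5 ± 2.33. Ifng itself was the lowest at 0.978, 1.57, 0.392 and 0.0513 TPM, from 16, 35, 11 and 1 counts, above 1 TPM in replicate 2 alone.

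Class II genes stood beside these for contrast, since mouse T cells are not known to make much class II. Of 9, 6 were expressed and none was called by edgeR. Cd74, the invariant chain, was at 286 ± 23.7 TPM, H2-DMa at 35.6 ± 3.86, H2-Oa at 16.7 ± 3.71 and H2-Ab1 at 2.71, 3.90, 9.68 and 8.19 TPM. H2-Ab1 was thus low in replicates 1 and 2 and high in 3 and 4, the opposite of H2-Q6, H2-Q7 and Nlrc5. Ciita, the class II counterpart of Nlrc5, had 5, 0, 0 and 0 counts.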

How the data were processed

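Total RNA-seq was deposited for 4 libraries of regulatory T cells. The values analysed are raw counts of read pairs, which the authors assigned to genes by featureCounts 1.4.6-p4 on mm10 with GENCODE M13, per the file headers, which record paired, both-ends-mapped, reverse-stranded counting over exons by gene identifier and no option for reads that map to several places. File names in the headers contain the word star2, and the sources used here do not give the aligner's version. The deposited exon length, also per the file headers' columns, gave the TPM computed here (counts over length, scaled to 1000000 per library). Depth was 43821767 to 73819468 counts. Intervals and floors of 3 counts cover counting error only.

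Symbols came from the reference annotation for 50376 of 50600 identifiers. Each library was tested against the other 3 with edgeR 4.0.16 (R 4.3.3, TMM, filterByExpr for 1 group, quasi-likelihood test, two-sided, adjusted over 12917 genes, threshold 0.05, common biological coefficient of variation 0.0852), checked on simulated counts. DESeq2 1.42.0 was an alternative, with another scaling, no filter, and each library left out. Shared stretches and coding identity were computed from GENCODE M21 transcripts and annotation (Python 3.11.15, Biopython 1.88). Stretches of 50 and 100 bases were compared between transcripts of genes at different places. Signal tracks and alignments were not analysed here.

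The members and lists were chosen with earlier results of these data known. All members are named, and from each pathway list the 4 most abundant genes, the lowest, any called and any at 0, with the 5 genes most like the most variable member. Cell type markers are given by list, with a few named. H2-M3, H2-T22, H2-Q5, Mr1, Cd1d2, Erap1, Tapbpl, Psmb10, Rfxap, Rfx5, Rfxank, Irf1 and Xist fall outside this rule or were singled out after their values were seen. H2-Q8, H2-Q9, H2-T9 and Nrdc matched no identifier. A gene of the lists is counted but not reported by name here.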

Additional observations from a re-analysis of the deposited data

How the results depend on the processing

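Genes called by edgeR in replicates 1, 2, 3 and 4 against the rest numbered 9, 0, 3 and 0. DESeq2 gave 16, 19, 8 and 0, the absence of a filter on low counts gave 105, 60, 35 and 16, and DESeq2's size factors in edgeR gave 9, 0, 3 and 0. Leaving out 1 of the other libraries gave 23 to 341 for replicate 1, 3 to 52 for replicate 2, 16 to 21 for replicate 3 and 2 to 9 for replicate 4. Without the filter 1, 2, 2 and 1 members were called (H2-Q7 in all 4 comparisons, H2-Q6 in those of replicates 2 and 3), and with a library left out 0 to 3, 0 to 3, 0 to 2 and 0 to 1. Why these counts rose was not tested beyond the construction of the leave-one-out fits, which removed a library from the reference side. The other scaling kept the side of the threshold and the direction of all 40 member results, and DESeq2 did so for the 34 to which it gave an adjusted p.

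Directions that turned when a library was left out were all of small, uncalled log2 differences. In replicate 1 they ranged from -0.0229 to 0.0415 for H2-K1, -0.0752 to 0.00695 for H2-T23 and -0.0519 to 0.0268 for B2m. In replicate 2 they ranged from -0.068 to 0.0215 for Tap1 and -0.0846 to 0.0643 for Tap2. In replicate 3 they ranged from -0.0629 to 0.0159 for B2m and -0.086 to 0.0104 for Tapbp. In replicate 4 they ranged from -0.0419 to 0.0178 for H2-K1, -0.104 to 0.0372 for Tap2 and -0.0487 to 0.0477 for Tapbp.

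Of the members, 10 were expressed at the TPM threshold used, and 9 at a TPM of at least 5 or an FPKM of at least 1 in all libraries. Multiplying the length by the share of unique stretches of 50 bases moved H2-Q6 most, from 7.07 to 10.87 TPM. It raised H2-Q7 from 12.3 to 16.8, H2-K1 from 939 to 1039, H2-D1 from 705 to 808 and H2-T23 from 104.6 to 122. Stretches of 100 bases, chosen after seeing the data, moved H2-Q6 above Nlrc5, as did leaving out replicate 3. The coefficient of variation ran from 41.5% to 69.2% for H2-Q6, 36.9% to 58.4% for H2-Q7 and 20.1% to 24.9% for Nlrc5 when a library was left out. It fell to 1.70% for B2m without replicate 2, to 4.30% for Tap2 and 2.70% for Tapbp without replicate 1, and to 2.78% for H2-T23 and 2.99% for Tap1 without replicate 3. A prior count of 5 kept 5 of the 5 genes most like H2-Q6. The alternative of genes over 10 CPM on average was not run, since H2-Q6 itself lies below that level. No paired analysis was possible because the labels give a single group.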
